A study of Mus musculus with 6 samples.

Results

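Transcripts of 10 enzymes of serine synthesis and the folate one-carbon cycle were measured in small intestinal organoids treated with low-density lipoprotein (LDL). The genes were Phgdh, Psat1, Psph, Shmt1, Shmt2, Mthfd1, Mthfd1l, Mthfd2, Aldh1l1 and Aldh1l2, found by symbol through the GENCODE annotation among 55416 Ensembl genes. All 10 had reads in every library and were among the 18459 genes whose normalized counts averaged at least 10. The set was chosen by results of the same LDL and PBS contrast in these libraries, so the values and calls below describe the genes and are not an independent test of them.

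Crypts of the duodenum and jejunum were taken from 3 wild-type (WT) C57BL/6 mice and grown as organoids, which are three-dimensional cultures of the intestinal epithelium. Organoids of each mouse received 50 μg/ml LDL or PBS as the control for 5 days, giving 3 LDL-treated and 3 PBS-treated libraries of ribosomal RNA-depleted total RNA. The age of the mice was not given in the sources used here. The animal identifier of mouse 3 has another prefix than those of mice 1 and 2, although the genotype label is WT in all 6 libraries, and counts of calls are therefore also given without mouse 3.

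In the serine pathway, 3-phosphoglycerate from glycolysis is oxidized by PHGDH, given an amino group by PSAT1 and dephosphorylated by PSPH. Serine then hands a carbon to tetrahydrofolate through SHMT1 in the cytosol or SHMT2 in mitochondria. In mitochondria MTHFD2 changes the oxidation state of this carbon and MTHFD1L releases it as formate, and MTHFD1 acts in the cytosol. ALDH1L1 in the cytosol and ALDH1L2 in mitochondria oxidize the formyl group of 10-formyltetrahydrofolate to carbon dioxide, and NADPH is among the other products. Proliferating epithelium is known to use these carbons for purines and thymidylate, and the transcription factor ATF4 is known to raise several of these genes when amino acids are short.

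ATF4 binds with C/EBP partners to an element whose core was searched here as TGATGNAA, on both strands. Within 300 bases upstream of the start of the canonical transcript, 0 of the 10 genes held it, against 2.72% of 12995 protein-coding genes tested. A wider window was searched after that result, and within 1000 bases on each side of the start 5 of 10 genes held it, against 17.7% of the 12995 genes. All 6 matches lay downstream of the start in intron 1. They are shown because the same core stands in genes that were lower with LDL and in genes that were not called. Each is printed on the strand of the gene in GRCm39 with 10 bases to either side, and capitals mark the core, or its reverse complement in Aldh1l2 and in the second site of Shmt2.
Phgdh: gccttttgtcTGATGCAAgaccttggcg
Shmt2: gctatggagaTGATGCAAccgagcctca
Shmt2: gcctcagtacTTTCATCAcgcaagggtc
Mthfd1l: cctccggctcTGATGCAAccgcgccggg
Mthfd2: tgctgcagtcTGATGAAAtctgtgagcc
Aldh1l2: agacgtgggaTTGCATCAgatcacttct
These stretches are chr3:98246525-98246552 on the minus strand, chr10:127357816-127357843 and chr10:127357794-127357821 on the minus strand, chr10:3923749-3923776 on the plus strand, chr6:83294152-83294179 on the minus strand and chr10:83369249-83369276 on the minus strand. Aldh1l2 was also the only one of the 10 genes with an E-box (CACGTG) in the 300 bases upstream, where 8.47% of the 12995 genes had one. It is printed with the E-box in capitals, and lies on the minus strand at chr10:83370037-83370062.
Aldh1l2: tgcaccaggtCACGTGtgcttagggg
Within 1000 bases on each side, 6 of 10 genes held an E-box, against 32.6%. The core of the antioxidant response element (TGACNNNGC) stood upstream of Phgdh alone in the 300-base window, against 11.9%, and in 5 of 10 genes in the wider window, against 53.9%. A match is a string of letters and does not show that a factor was bound.

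The libraries held 22061545 to 31073360 reads on genes. Normalized counts are reads on a gene over the size factor of its library. The fewest reads on any of the 10 genes were 39, for Aldh1l2 in the LDL-treated library of mouse 1. The LDL-treated library of mouse 1 and the PBS-treated library of mouse 2 had 7.62% and 3.02% of their reads on 18S ribosomal RNA, against at most 0.225% in the other libraries. Reads were found on 35781, 29870 and 32751 genes in the LDL-treated libraries of mice 1, 2 and 3, and on 29285 to 30018 genes in the PBS-treated libraries. The part of these differences in the values below was not tested.

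Of the 10 enzymes, 5 were lower in LDL-treated organoids, namely Psat1, Psph, Mthfd2, Aldh1l1 and Aldh1l2, and 0 were higher. A gene was called where limma gave a Benjamini-Hochberg adjusted p-value under 0.05 over all genes tested and where it also differed by over 1.5-fold, a rule that called 0.395% of all 18459 genes lower and 0.878% higher. In the fit with the mouse as a block, the same 5 genes were called and 0 were higher, against 3.46% and 5.68% of all genes. No gene of the 10 was higher at an unadjusted p-value under 0.05 in limma, in edgeR or in DESeq2. The same 5 genes were also those in which every LDL-treated value lay below every PBS-treated value, as 12.3% of all genes did, while 0 lay above, as 11.9% of all genes did. The median log2 fold change was -0.51 over the 10 genes and -0.02 over all genes tested. Leaving out single libraries changed the count. Among the LDL-treated libraries, dropping that of mouse 1 left 2 genes (Aldh1l2 and Mthfd2), dropping that of mouse 2 left 5 and dropping that of mouse 3 left 0. The same fits called 44, 1133 and 2 of all 18459 genes lower, against 73 in the main fit. Dropping any PBS-treated library left 1 (Aldh1l2). Without the PBS-treated library of mouse 1, 2 or 3, the fits called 3, 9 and 7 of all genes lower. Without both libraries of mouse 3 the count was 0, in a fit of 2 libraries against 2 that called 0 of all 18459 genes with limma. In that fit the 5 genes called in the main fit still differed by over 1.5-fold at an unadjusted p-value under 0.05.

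**Figure D1:**
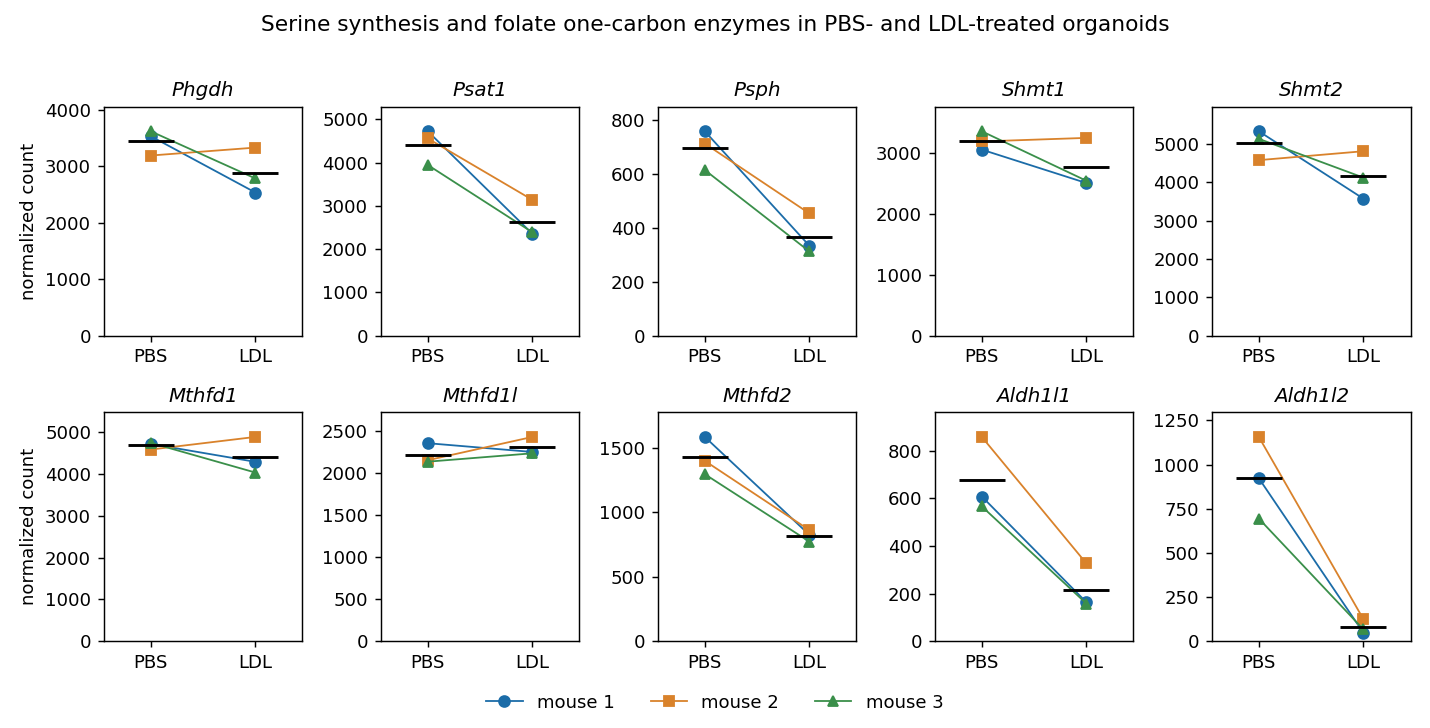
Normalized counts (vertical axis, from 0) of the 10 enzymes in PBS- and LDL-treated organoids. Each line joins the libraries of 1 mouse and the black bars are means of 3 libraries; the groups are separate for Psat1, Psph, Mthfd2, Aldh1l1 and Aldh1l2 and overlap for the other 5 genes.

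Among the serine synthesis enzymes, the second and the third step were lower with LDL and the first was not called. Phgdh (ENSMUSG00000053398, chromosome 3 of GRCm39 from 98220484 to 98255047) encodes the dehydrogenase that draws 3-phosphoglycerate into the pathway. Its normalized counts were 3532, 3190 and 3619 in PBS-treated organoids of mice 1, 2 and 3 and 2534, 3330 and 2784 in LDL-treated organoids. The groups overlapped, because the LDL-treated value of mouse 2 was above its PBS-treated value, and the log2 fold change was -0.26 ± 0.12 (SE; limma adjusted p = 0.269).

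Psat1 (ENSMUSG00000024640, chromosome 19 from 15882039 to 15924701) encodes the aminotransferase of the second step, which takes its amino group from glutamate. Its normalized counts were 4723, 4558 and 3945 with PBS and 2353, 3138 and 2389 with LDL in mice 1, 2 and 3. All LDL-treated values lay below all PBS-treated values, and mouse 2 kept the highest of them. The mean fell from 4409 ± 410 to 2627 ± 443 (SD, n = 3), and the log2 fold change was -0.76 ± 0.14 (SE; limma adjusted p = 0.0461).

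Psph (ENSMUSG00000029446, chromosome 5 from 129841925 to 129864513) encodes the phosphatase that releases serine. Psph had normalized counts of 757, 712 and 614 with PBS and 333, 453 and 312 with LDL. The groups did not overlap, and again the LDL-treated value was highest in mouse 2. The log2 fold change was -0.94 ± 0.16 (SE; limma adjusted p = 0.0411), and the PBS-treated level was 2.27, 1.57 and 1.97 times the LDL-treated level within mice 1, 2 and 3. Exons of Psph share 465 bases with Cct6a on the other strand, a chaperonin subunit gene whose normalized count was 7643 ± 319 with PBS and 7750 ± 583 with LDL (SD, n = 3). The strand setting of the counting was not given, so reads of the shared bases cannot be assigned.

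The ratio of the second to the first enzyme, which does not depend on the scaling of a library, was lower with LDL in each mouse. Psat1 over Phgdh was 1.34, 1.43 and 1.09 with PBS and 0.928, 0.942 and 0.858 with LDL in mice 1, 2 and 3. The last 2 steps stayed closer to each other, with Psph over Psat1 at 0.157 ± 0.003 with PBS and 0.139 ± 0.007 with LDL (SD, n = 3). Psph over Psat1 was nevertheless also lower with LDL in each mouse, and the groups did not overlap. These ratios are between normalized counts that were not divided by length, so only their change between treatments can be read.

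The serine hydroxymethyltransferases, which split serine into glycine and a folate-bound carbon, were not called in either compartment. Shmt1 (ENSMUSG00000020534, chromosome 11 from 60661185 to 60708167), the cytosolic enzyme, had normalized counts of 3061, 3196 and 3363 with PBS and 2511, 3255 and 2549 with LDL in mice 1, 2 and 3. Shmt2 (ENSMUSG00000025403, chromosome 10 from 127352266 to 127358323), the mitochondrial enzyme, had 5335, 4582 and 5138 with PBS and 3575, 4814 and 4125 with LDL. For both genes the LDL-treated value was below the PBS-treated value in mice 1 and 3 and slightly above it in mouse 2, and the groups overlapped.
The log2 fold changes were -0.22 ± 0.12 (SE) for Shmt1 (limma adjusted p = 0.353) and -0.27 ± 0.13 (SE) for Shmt2 (limma adjusted p = 0.280). The ratio of Shmt2 to Shmt1 was 1.57 ± 0.16 with PBS and 1.51 ± 0.10 with LDL (SD, n = 3). This difference in the ratio was smaller than the spread between mice. Smcr8, which shares 346 exonic bases with Shmt1 on the other strand, had a log2 fold change of 0.07, and Ndufa4l2, which shares 727 bases with Shmt2, held only 6 to 19 reads per library.

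Of the folate-interconverting enzymes, the mitochondrial Mthfd2 was lower with LDL, and neither Mthfd1l nor the cytosolic Mthfd1 was called. Mthfd2 (ENSMUSG00000005667, chromosome 6 from 83282673 to 83302890) encodes the mitochondrial dehydrogenase and cyclohydrolase of methylenetetrahydrofolate. Normalized counts of Mthfd2 were 1583, 1398 and 1294 with PBS and 825, 861 and 772 with LDL in mice 1, 2 and 3. The LDL-treated values lay close together and below all PBS-treated values. The log2 fold change was -0.79 ± 0.11 (SE; limma adjusted p = 0.0186), the smallest standard error among the 5 genes called.

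Mthfd1l (ENSMUSG00000040675, chromosome 10 from 3922870 to 4117081) encodes the mitochondrial synthetase that releases formate, the step after Mthfd2. Normalized counts of Mthfd1l were 2357, 2155 and 2137 with PBS and 2253, 2432 and 2237 with LDL. The groups overlapped, and the log2 fold change of 0.06 ± 0.09 (SE) was the only one of the 10 above 0 (limma adjusted p = 0.766). Mthfd1 (ENSMUSG00000021048, chromosome 12 from 76301984 to 76366588), the trifunctional cytosolic enzyme that takes up formate again, had normalized counts of 4722, 4589 and 4750 with PBS and 4294, 4891 and 4038 with LDL. Its groups overlapped as well, with a log2 fold change of -0.09 ± 0.10 (SE; limma adjusted p = 0.656).
The ratio of Mthfd2 to Mthfd1l was 0.672, 0.649 and 0.606 with PBS and 0.366, 0.354 and 0.345 with LDL in mice 1, 2 and 3. These ratios varied less between mice than the levels of Mthfd2 did, and the groups were far apart. Mthfd2 over Mthfd1 was 0.304 ± 0.031 with PBS and 0.186 ± 0.009 with LDL (SD, n = 3). Mthfd2l, a mitochondrial relative of Mthfd2 with a related reaction, had normalized counts of 461 ± 31.8 with PBS and 426 ± 8.58 with LDL (SD, n = 3) and was not called.

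The formyltetrahydrofolate dehydrogenases had the largest differences of the 10 genes. Aldh1l1 (ENSMUSG00000030088, chromosome 6 from 90463409 to 90577185), which encodes the cytosolic form, had normalized counts of 607, 857 and 566 with PBS and 163, 326 and 158 with LDL in mice 1, 2 and 3. Mouse 2 had the highest value in both treatments, and the groups did not overlap. The log2 fold change was -1.70 ± 0.29 (SE; limma adjusted p = 0.0409).

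Aldh1l2 (ENSMUSG00000020256, chromosome 10 from 83323314 to 83370005) encodes the mitochondrial form, and carries the intronic core and the upstream E-box printed above. Its normalized counts were 923, 1157 and 694 with PBS and 47.6, 125 and 66.9 with LDL in mice 1, 2 and 3, from 904, 931 and 853 reads with PBS and 39, 137 and 80 reads with LDL. Every LDL-treated value was far below every PBS-treated value, and mouse 2 was again highest in both treatments. The log2 fold change was -3.60 ± 0.34 (SE; limma adjusted p = 0.00576), and the PBS-treated level was 19.4, 9.29 and 10.4 times the LDL-treated level in mice 1, 2 and 3.
Aldh1l2 shares 1056 exonic bases at its 3′ end with Nopchap1 on the other strand. Nopchap1 had normalized counts of 3559 ± 165 with PBS and 3677 ± 116 with LDL (SD, n = 3), so its level was similar in both treatments. How many of the few reads on Aldh1l2 in LDL-treated organoids lay in the shared bases was not tested. The ratio of Aldh1l2 to Aldh1l1 was 1.52, 1.35 and 1.23 with PBS and 0.291, 0.382 and 0.423 with LDL in mice 1, 2 and 3. The transcript of the mitochondrial enzyme was the more reduced of the pair in every mouse.

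**Figure D2:**
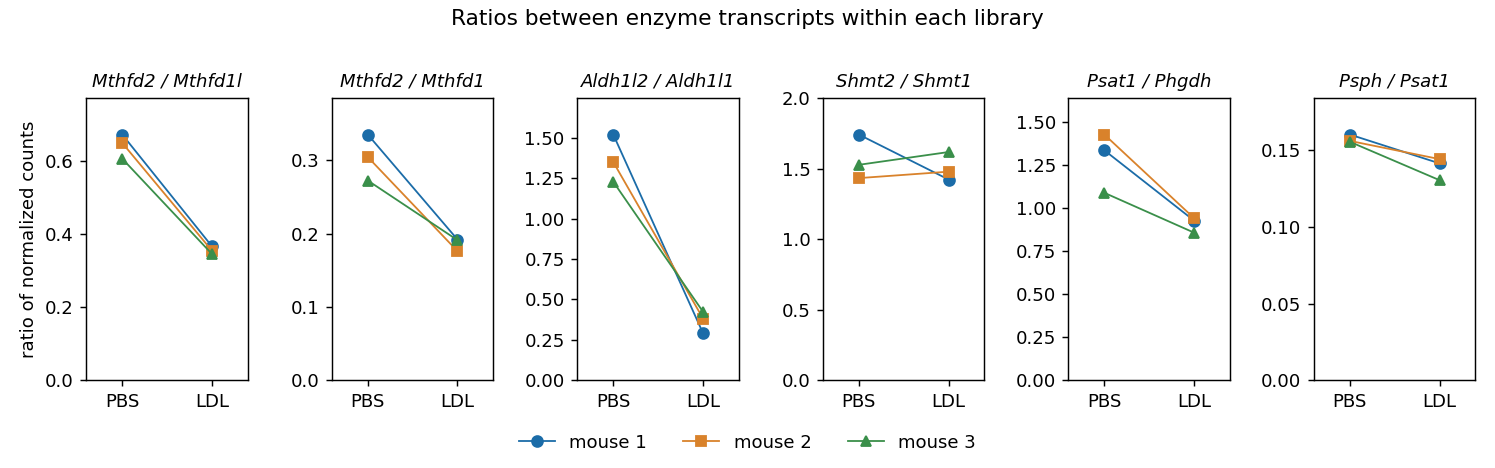
Ratios of normalized counts between enzyme transcripts of the same library (vertical axes, from 0), with 1 line per mouse. The ratios are Mthfd2 over Mthfd1l, Mthfd2 over Mthfd1, Aldh1l2 over Aldh1l1, Psat1 over Phgdh, Psph over Psat1 and Shmt2 over Shmt1. All but Shmt2 over Shmt1, which overlaps, are lower with LDL in all 3 mice with no overlap between the groups.

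The mice differed in how many of the enzymes were lower. In mouse 1, 10 of 10 genes were lower with LDL than with PBS, in mouse 3 it was 9 of 10, and in mouse 2 it was 5 of 10, against 53.8%, 51.7% and 49.7% of all genes tested in these mice. The median log2 difference within the mouse was -0.76, -0.56 and -0.26 in mice 1, 3 and 2. The 5 genes that were lower in mouse 2 were the 5 that were called. In the other 5 genes, which include Phgdh and both Shmt genes, mouse 2 had log2 differences between 0.03 and 0.17. Whether mouse 2 responded differently was not tested, because each mouse gave 1 library per treatment. In bulk RNA, fewer cells of a type and less RNA per cell cannot be told apart.

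**Figure D3:**
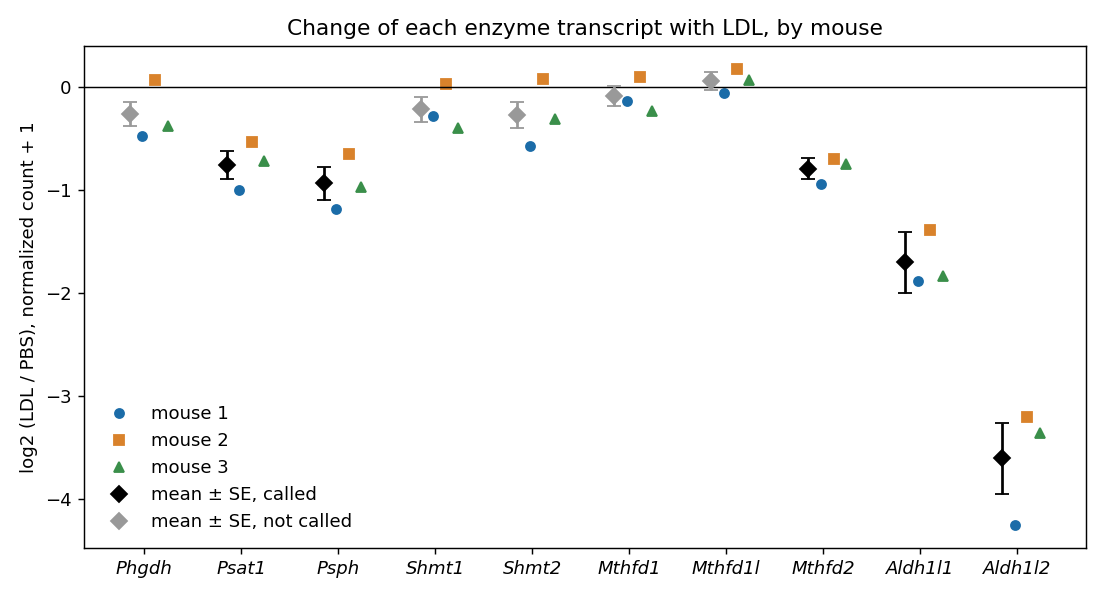
Log2 ratio of LDL- to PBS-treated organoids, on normalized counts plus 1, for each enzyme. Diamonds are the fitted mean with its standard error, black where the gene was called, and colored symbols are the 3 mice; the values of mouse 2 (squares) are the highest of the 3 for every gene.

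The order of the enzymes by level was compared as normalized count per kilobase of annotated exon. In PBS-treated organoids Shmt2 and Phgdh were highest, with 1222 ± 95.1 and 1220 ± 80.3 per kilobase (SD, n = 3), and their ranges overlapped. Mthfd1, Psat1, Shmt1, Mthfd2 and Mthfd1l followed with mean levels of 954, 749, 495, 389 and 191 per kilobase, each with a range separate from the next. Aldh1l2, Psph and Aldh1l1 were lowest with mean levels of 123, 94.5 and 79.5 per kilobase, and the ranges of neighbors in this order overlapped.
With LDL, Aldh1l2 moved from the eighth to the last place, at 10.6 ± 5.34 per kilobase (SD, n = 3), below Aldh1l1 at 25.4 ± 11.2. The ranges of Aldh1l2 and Aldh1l1 did not overlap in LDL-treated organoids. Psat1, at 446 ± 75.4 per kilobase, came to overlap Shmt1 at 428 ± 64.7 (SD, n = 3). Mthfd2 and Mthfd1l were still in the same order at 224 ± 12.3 and 199 ± 9.32 per kilobase (SD, n = 3), although the distance between them was much smaller than with PBS. The summed normalized count of the 10 genes was 26120 to 27601 with PBS and 18889 to 23625 with LDL.

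**Figure D4:**
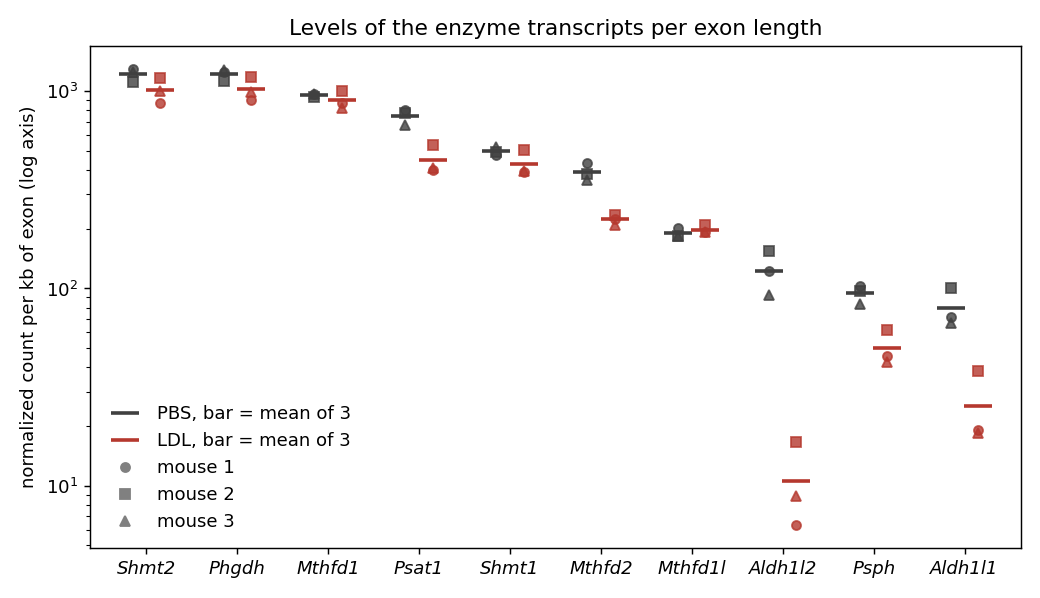
Normalized count per kilobase of annotated exon (log axis) for the 10 enzymes, in order of the PBS-treated mean. Bars are means of 3 libraries, and circles, squares and triangles are mice 1, 2 and 3; Aldh1l2 goes from 123 to 10.6 per kilobase and becomes the lowest of the 10 genes.

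The genes whose pattern over the 6 libraries was most like that of the 10 enzymes were sought, where normalized counts averaged at least 100, by Pearson's r with the mean standardized log2 value of the enzymes. They were Fam234b (r = 0.996), Gm18588 (r = 0.994), Samhd1 (r = 0.993), Haus1 (r = 0.991) and Sepsecs (r = 0.991). The libraries share the mice and the treatment contrast, and these are the highest of many correlations, so they are given as a description. Samhd1, a hydrolase of deoxynucleoside triphosphates, had 1336 ± 56.8 with PBS and 925 ± 188 with LDL (SD, n = 3), and Sepsecs, the enzyme that makes selenocysteinyl-tRNA, had 1163 ± 23.2 and 979 ± 115. None of the 5 genes was called with limma, and their log2 fold changes were between -0.55 and -0.20. Among the enzymes themselves, r with the shared pattern was between 0.85 and 0.96 for 9 genes and 0.06 for Mthfd1l, where each gene is itself part of the pattern.

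The neighboring pathways were read from 9 lists, with 57 of 69 genes tested. They covered glycolysis around 3-phosphoglycerate, serine and glycine carriers, serine-using enzymes, glycine cleavage, folate uptake, other folate-interconverting enzymes, purine and thymidylate synthesis, the methionine cycle and choline oxidation. Only Cth was called lower (1 of 57, against the 0.395% of all genes given above), and 0 were called higher. Cth encodes cystathionine gamma-lyase, the last enzyme of the transsulfuration route that takes the carbon skeleton of serine into cysteine. Its normalized counts were 2647, 3200 and 2117 with PBS and 495, 1247 and 565 with LDL, groups that did not overlap. The log2 fold change was -1.89 ± 0.33 (SE; limma adjusted p = 0.0421).

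For other lists of this kind the most abundant gene is given. Gapdh, the glycolytic dehydrogenase, had 22580 ± 3258 with PBS and 27522 ± 4081 with LDL, and Slc38a1, a carrier of neutral amino acids, had 4259 ± 361 and 5367 ± 329 (SD, n = 3). Slc25a32, the mitochondrial folate carrier, had 1050 ± 100.2 with PBS and 940 ± 94.0 with LDL (SD, n = 3). None of these 3 genes was called.
Atic, of the last steps of purine synthesis, had a log2 fold change of 0.14, Dld, the dehydrogenase shared by glycine cleavage and other complexes, one of -0.12, Ahcy, of the methionine cycle, one of -0.29, and Chdh, of choline oxidation, one of -0.05. The 7 tested genes of purine and thymidylate synthesis, which take up folate-bound carbons, had a median log2 fold change of 0.12, and 0 were called in either direction by limma, edgeR or DESeq2, or when limma's p-value was left unadjusted. The mouse block changed the count for these 9 lists from 1 to 4 lower and from 0 to 1 higher of 57, where the same fit called 3.46% of all genes lower and 5.68% higher. The added genes included Sdsl and Pipox (lower, log2 fold changes of -1.12 and -1.74) and Ggh (higher, 0.74), which were named after their values were seen. Pipox oxidizes sarcosine. DESeq2 on recovered reads called 3 genes lower and 2 higher in these lists, edgeR 0 in either direction, so that Cth was not called there, and limma with unadjusted p-values 4 lower and 2 higher. Over all genes, DESeq2 called 1.89% lower and 4.58% higher, edgeR 0.379% and 1.01%, and limma with unadjusted p-values 4.2% and 6.34%.

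Genes known to respond to ATF4 were read from a list of 20, without the 10 enzymes, of which 19 were tested. It was written with earlier results of these data known, and its count is no independent support. In this list 5 genes were lower with LDL and 0 were higher, against 0.395% and 0.878% of all genes, the median log2 fold change was -0.50, and 16 of 19 means were lower, against 52.4% of all means. The genes called were Chac1, a glutathione-degrading enzyme, Atf5 and Trib3, both regulators in the amino acid response, Stc2, a secreted glycoprotein, and Pck2, the mitochondrial phosphoenolpyruvate carboxykinase.
Atf5 had normalized counts of 2406, 2197 and 2307 with PBS and 643, 796 and 807 with LDL, which did not overlap, and its log2 fold change was -1.63 (limma adjusted p = 0.00137). Chac1, with 325, 355 and 366 against 78.1, 93.7 and 106, changed by -1.91 on the log2 scale (limma adjusted p = 0.00313). Trib3, Stc2 and Pck2 had log2 fold changes of -1.78, -1.85 and -1.32, with adjusted p-values of 0.0241, 0.0345 and 0.0157 from limma. In each of these 5 genes the LDL-treated values lay below the PBS-treated values.
Atf4 itself had 6410 ± 616 with PBS and 4879 ± 530 with LDL (SD, n = 3), and its log2 fold change of -0.39 was not called (limma adjusted p = 0.130). The mouse block called 8 genes of this list lower, with Asns, Ddit4 and Nupr1 added after their values were seen, and 1 higher, Atf3, against 3.46% and 5.68% of all genes. For the list, DESeq2 called 7 lower and 1 higher, edgeR 5 lower and 0 higher, and limma with unadjusted p-values 8 lower and 1 higher, and the shares of all genes under these rules are those given above for the other lists. Over all 10 lists of neighboring pathways, the count of 6 lower genes became 2 (Atf5 and Chac1) when the LDL-treated library of mouse 3 or any PBS-treated library was dropped. It became 4 and 13 when the LDL-treated library of mouse 1 or of mouse 2 was dropped, and 0 when mouse 3 was left out altogether. Of all 18459 genes, 73 were lower in the main fit. Dropping the LDL-treated library of mouse 1, 2 or 3 gave 44, 1133 and 2, dropping the PBS-treated library gave 3, 9 and 7, and leaving out mouse 3 gave 0.

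**Figure D5:**
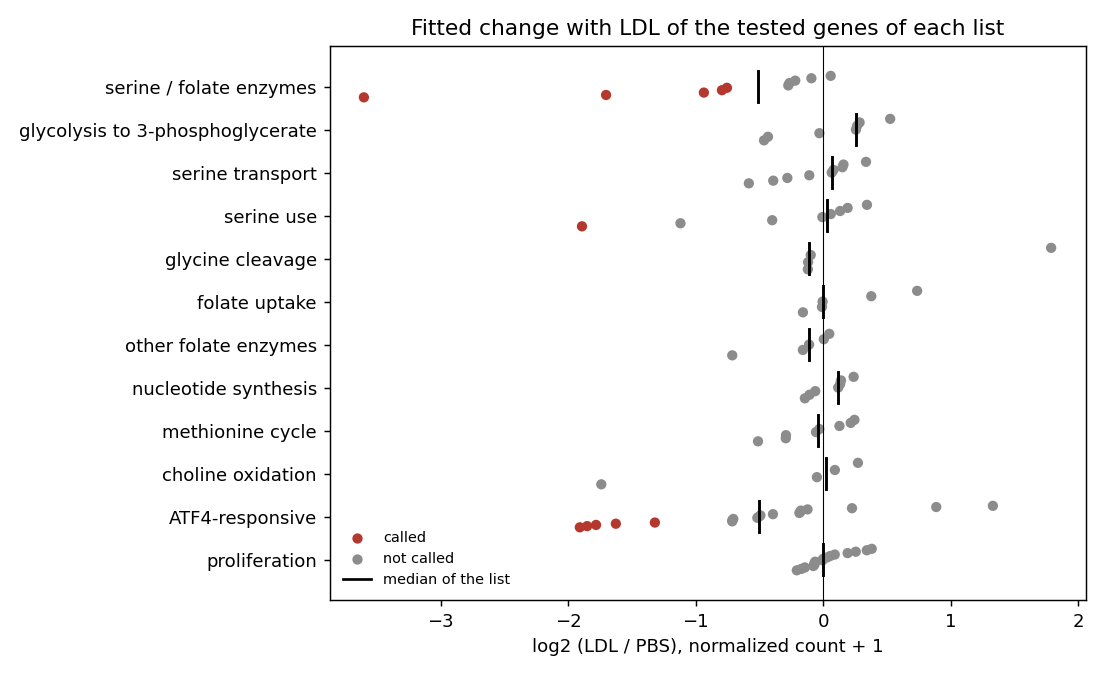
Fitted log2 ratio of LDL to PBS (horizontal axis, normalized counts plus 1) for the tested genes of the enzyme set, of 10 lists of neighboring pathways and of proliferation. Red points were called and black bars are list medians; the calls lie in the enzyme set (5), the ATF4-responsive list (5) and serine use (Cth).

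Cell type markers moved between the treatments as well, and their part in the enzyme values was not tested. Proliferation genes, 16 of 16 tested, had summed normalized counts of 91022 to 92135 with PBS and 85253 to 93873 with LDL, and 0 were called by limma, edgeR or DESeq2, or when limma's p-value was left unadjusted. The sum of 5 goblet cell markers was 43791 to 49552 with PBS and 26119 to 31652 with LDL, with Fcgbp and Agr2 called lower and Clca1 higher. In this list edgeR called 1 lower and 1 higher. The mouse block, which added Tff3 (-0.73), DESeq2 and limma with unadjusted p-values each called 3 lower and 1 higher. The sum of 4 stem cell markers, of which Olfm4 is the most abundant, was 13169 to 25498 with PBS and 6947 to 13435 with LDL, but its genes went both ways, with log2 fold changes of -1.17 for Olfm4, -0.79 for Smoc2, 0.40 for Lgr5 and 1.22 for Ascl2. None of these was called by limma, and with the mouse block Olfm4 and Smoc2 were called lower and Ascl2 higher. The sum of 5 Paneth cell markers was 13200 to 21605 with PBS and 9962 to 12543 with LDL, and none was called by limma, while the block called Defa24 and Itln1 lower (-0.70 and -1.18) and Mmp7 higher (0.75). In each of the stem cell and Paneth cell lists, limma with unadjusted p-values called 2 lower and 1 higher, and edgeR called 0. DESeq2 called 1 lower and 1 higher among the stem cell markers and 2 lower and 1 higher among the Paneth cell markers. The shares of all genes under these rules are those given above.
The sum of 7 enterocyte markers was 18096 to 39406 with PBS and 21182 to 46208 with LDL, highest in mouse 2 in both treatments. Of these, Alpi was called higher, with a log2 fold change of 2.13 (limma adjusted p = 0.00828), and the mouse block also called Apoa4 and Fabp2 higher (1.18 and 0.69) and Lct lower (-1.80). Defining markers of the epithelium were present throughout, with sums of 73382 to 78318 with PBS and 83191 to 106320 with LDL over 8 genes. None was called by limma, and 5 means were higher and 3 lower with LDL. The mouse block called Krt8, Krt18 and Krt20 higher (0.79, 0.93 and 0.91), and Cdx1, at -0.58, was not called. DESeq2 and limma with unadjusted p-values each called 3 of these genes higher, and edgeR called 0. The sums of 8 stromal markers were 137 to 167 with PBS and 87.3 to 151 with LDL, those of 6 immune markers 250 to 341 and 296 to 439, and those of 3 endothelial markers 14.7 to 22.5 and 10.003 to 25.6. The mouse block called the immune marker Cd14 higher (1.18), which limma without the block did not. The sum of 4 enteroendocrine markers was 8659 to 13880 with PBS and 6769 to 10709 with LDL, with 4 of 4 means lower. That of 3 tuft cell markers was 154 to 213 with PBS and 119 to 189 with LDL, with 2 of 3 means lower. Limma called none of the enteroendocrine and tuft cell markers, and the block called the tuft cell marker Pou2f3 lower (-0.78). The stromal marker Lum held at most 3 reads in every library.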

How the data were processed

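Organoids of 3 mice, each treated with PBS or LDL, were analyzed by RNA-Seq in 6 libraries. The authors aligned single-end reads to GRCm39 with STAR, counted them per gene with featureCounts, used DESeq2, and deposited signal values that are normalized counts (reads divided by 1 size factor per library); bcl2fastq 2.20 is named in the submitters' processing notes. The strand setting and a mouse term were not given in the sources used here. Whole reads were recovered for 100% of values (tolerance 0.001 reads). Of 55416 identifiers, 54749 were found in GENCODE M39 and 667 were not. The libraries held 22061545 to 31073360 reads on genes, and a count of 0 allows up to 3 reads by counting error alone.

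For genes averaging at least 10, normalized counts plus 1 were log2-transformed. LDL and PBS were compared with limma 3.58.1 (R 4.3.3; eBayes with a trend, two-sided, Benjamini-Hochberg). Fold changes are on the log2(normalized count + 1) scale, which understates the change of low genes. Replicate numbers were taken to pair the samples because LDL- and PBS-treated libraries of 1 number share an animal identifier; with treatment means removed, r across genes between both libraries of a mouse was 0.484, 0.421 and 0.462. Each library is 1 culture. The main fit had no mouse term, so its p-values measure the spread between libraries within a treatment, not that of the LDL effect between mice. In limma with the mouse block, adjusted p-values of the 5 called enzymes were between 6.73e-05 (Aldh1l2) and 0.00291 (Psat1). The members and lists were chosen with earlier results of these data known. Named genes were the 10 enzymes, called genes of each pathway list or else its most abundant gene, the 5 genes most alike, and overlapping genes on the other strand; a few that this rule names are left out of the text.

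As alternatives, the pseudocount was 0.5 or 5, the filter on the mean was dropped or set to 50, and upper-quartile scaling, the mouse block, left-out libraries, edgeR 4.0.16 and DESeq2 1.42.0 on recovered reads with and without the block, and any fold change were tried. Motifs were searched in GRCm39 around canonical transcript starts of protein-coding genes tested. Python 3.11.15 (matplotlib 3.10.9, numpy 2.4.6, pandas 2.3.3) made the tables and figures.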

Additional observations from a re-analysis of the deposited data

How the results depend on the processing

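The count of 5 enzymes lower with LDL and 0 higher, and the names of the 5, were the same under both other pseudocounts, both other filters, upper-quartile scaling, the replicate block, edgeR and DESeq2 with and without the block, and any fold change. Leaving out 1 library gave counts of 0 to 5 (median log2 fold change -0.61 to -0.43), and leaving out both libraries of mouse 3 gave 0; fewer libraries were tested there. Of the log2 fold changes of single enzymes, 0 reversed under any alternative. The count of 6 neighboring pathway genes lower was 12 with limma and the replicate block, 12 with edgeR and the block, 10 with DESeq2, 11 with DESeq2 and the block, 2 to 13 with 1 library left out and 0 without both libraries of mouse 3. The count of 0 such genes higher was 2 with limma and the block, 4 with edgeR and the block, 3 with DESeq2 with or without the block, and 0 to 3 with 1 library left out. The causes were not tested. Over all genes tested, 73 were lower and 162 higher, against 639 and 1048 with the replicate block, 348 and 846 with DESeq2, 588 and 1171 with edgeR and the block, 511 and 981 with DESeq2 and the block, 245 and 506 of 43039 with no filter, 2 to 1133 and 18 to 1179 with 1 library left out, and 0 and 0 without mouse 3. The mouse block changed no call of the 10 enzymes. With 3 mice, depth and number of animals limit small changes, and an enzyme that was not called is not shown to be unchanged.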
